A study of Schizosaccharomyces pombe with 14 samples.

Results

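The step from 4 to 8 h without phosphate was examined in fission yeast, Schizosaccharomyces pombe, that lack maf1. It was chosen by its labels alone and compares the 3 libraries of the maf1 deletion taken at 8 h with the 3 taken at 4 h, across all genes. These are 2 of the 14 samples of the series and 6 of its 42 libraries. The series follows an h+ deletion strain, maf1[delta]::natMX (lab strain AGP256), with a drug-resistance cassette in place of maf1, and an h- wild type (AGP72) at 7 times. Cells at 0 h were in log phase in rich YES medium at 30 ºC, and all later cells were in the synthetic medium ePMGT without phosphate, so by the labels the 8 h and 4 h cells of a strain differ only in time. The series asks, by its title, how Maf1 bears on quiescence or death in long phosphate starvation and on tRNA production. Poly(A)-selected RNA, purified with hot acid phenol, was sequenced from stranded libraries. Each sample has 3 replicate experiments, which are not stated to be separate cultures, so p-values measure only the spread between these libraries.

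Maf1 is a conserved repressor of RNA polymerase III, the enzyme that makes tRNA and 5S rRNA. It acts when nutrients run short. Fission yeast without phosphate switches on secreted phosphatases and membrane transporters of the phosphate (PHO) regulon and stops dividing. In the same cells, starvation for several nutrients lowers the making of ribosomes and leads haploid cells towards mating and meiosis.

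The deletion libraries held 35336096 to 40467960 counts at 8 h and 33249827 to 36066314 at 4 h. Wild-type libraries held 14058455 to 20622551 counts at 8 h and 18232580 to 21283290 at 4 h. Depth, mating type and genotype thus change together between the strains. Replicates of a sample correlated at 0.995 or more in these groups but differed by more than counting error. The maf1 transcript, in CPM (counts scaled to 1 common library size after TMM, the unit of all levels given here), had 2.03, 3.00 and 2.76 CPM in the deletion at 8 h and 1.77, 2.72 and 2.50 CPM at 4 h. Wild-type libraries had 106, 100 and 100 CPM at 8 h and 82.3, 79.6 and 73.6 CPM at 4 h, so every library followed its strain label. The deletion's maf1 values overlapped between 8 h and 4 h, so they do not check the time labels. In bulk RNA, fewer cells that carry a transcript and less of it per cell cannot be told apart.

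In the deletion, 361 of 6521 genes tested rose from 4 to 8 h and 162 fell, where a call needs an adjusted p under 0.05 and a change of at least 2-fold. All adjusted p-values come from edgeR's quasi-likelihood test with Benjamini-Hochberg adjustment over all genes. The calls are 8.02% of the genes, with 5.54% higher and 2.48% lower, and 65 of the rises and 24 of the falls were at least 4-fold. The median log2 change of all genes was 0.01, and 4505 genes passed the adjusted p alone. Of the called genes, 493 of 523 had no overlap between the 3 libraries at 8 h and the 3 at 4 h, as had 4554 of all 6521 genes. By type, 115 protein-coding genes rose and 65 fell, 173 noncoding RNA genes rose and 94 fell, and 31 tRNA genes rose.

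Of 9 genes of phosphate acquisition tested, 1 rose and none fell, with a median log2 change of 0.12. That is 11.1% called, near the 8.02% of all genes. The extracellular 5'-nucleotidase SPBPB2B2.06c, which releases phosphate from nucleotides outside the cell, had 3534, 3561 and 3368 CPM at 8 h, against 1458, 1204 and 1179 CPM at 4 h. Its groups lay apart, and it rose by 1.45 ± 0.14 on the log2 scale (SE; edgeR adjusted p = 3.3e-11). The secreted acid phosphatase pho1 had 27815, 28169 and 25568 CPM at 8 h, against 15127, 15255 and 14393 CPM at 4 h. Its libraries at 0 h, in YES, had 773, 1064 and 1013 CPM. The 8 h and 4 h libraries did not overlap, but the log2 change of 0.86 ± 0.08 stayed under 2-fold.

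The glycerophosphodiester transporter tgp1 averaged 1828 CPM at 8 h and 1074 CPM at 4 h, a log2 change of 0.77. The phosphate transporter pho84 had 4770 to 5076 CPM at 8 h and 4035 to 4106 CPM at 4 h, a log2 change of 0.28. A second phosphate transporter, pho842, was lower at 8 h, with 399, 384 and 338 CPM at 8 h, against 640, 635 and 696 CPM at 4 h. Its log2 change of -0.81 ± 0.09 (edgeR adjusted p = 2.1e-10) was again under 2-fold, with no overlap between groups. The vacuolar alkaline phosphatase pho8 and the phosphodiesterase gde1 had log2 changes of -0.05 and -0.08.

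Of the same 9 genes 2 rose in the wild type, tgp1 and SPBPB2B2.06c, and their median log2 change was 0.37, beside 6.21% of all genes higher there. None of the 9 was called by edgeR in the difference between strains, where 6 had an unadjusted p under 0.05, and DESeq2 called none. At the adjusted p alone 6 differed, all negative. Of the 9 differences 8 were negative, with a median of -0.29. The lowest difference was that of pho842, at -0.99 ± 0.12 (edgeR adjusted p = 5.4e-08). It passed the threshold, at -1.01 to -1.05, without replicate 1 or 2 at 8 h or replicate 1 or 2 at 4 h of the deletion, and without replicate 1 at 8 h or replicate 2 at 4 h of the wild type. Its wild-type libraries had 845, 927 and 996 CPM at 8 h and 796, 844 and 807 CPM at 4 h. SPAC1039.02, the other 5'-nucleotidase, had a log2 change of 0.12 in the deletion and 0.84 in the wild type, and the difference of -0.72 had an edgeR adjusted p of 7.6e-05.

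**Figure D1:**
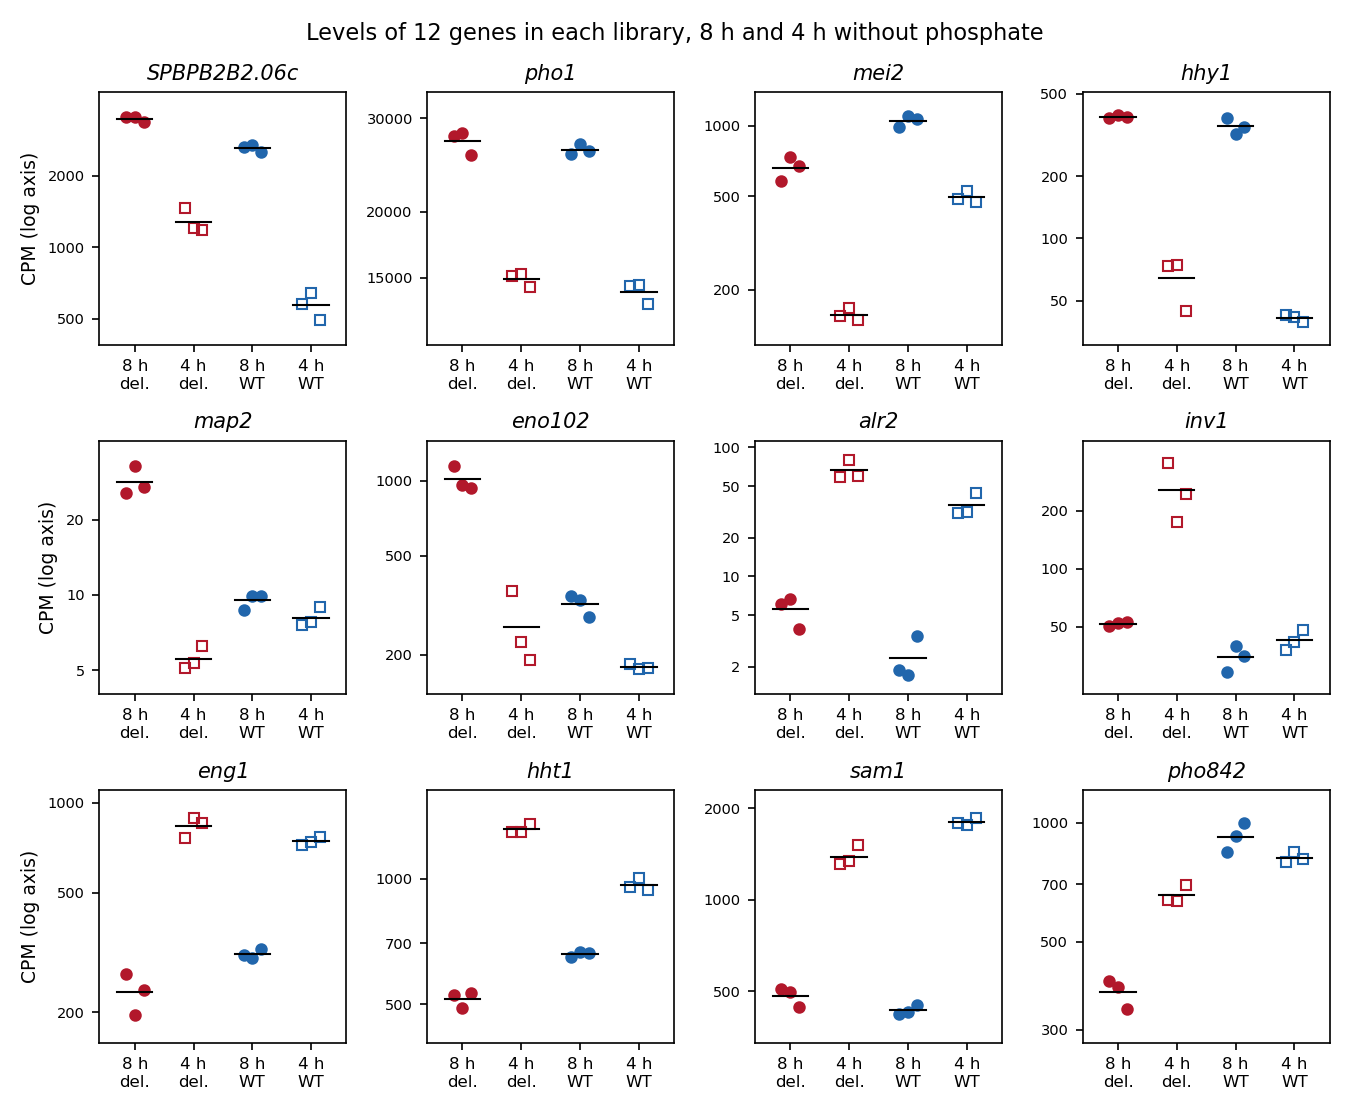
Level of 12 genes in every library, in CPM on a log axis, with a panel per gene. In each panel filled circles are 8 h and open squares 4 h, red is the maf1 deletion and blue the wild type, and the bar is the mean of 3 libraries. In the deletion mei2, for example, had 580 to 734 CPM at 8 h and 148 to 167 CPM at 4 h. No gene shown has overlapping groups there, which the naming rule required of most of them.

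Of 35 genes of sexual differentiation and entry into meiosis, 8 rose and 1 fell in the deletion, with a median log2 change of 0.41. Called members make 25.7% of the list, beside 8.02% of all genes. The wild type had 6 rises and 1 fall in this list, with a median of 0.74, where 6.21% of all genes rose and 3.28% fell. The RNA-binding protein mei2, which starts meiosis, had 580, 734 and 674 CPM in the deletion at 8 h, against 154, 167 and 148 CPM at 4 h. That is a rise of 2.08 ± 0.10 on the log2 scale (edgeR adjusted p = 4.5e-19). The noncoding RNA sme2, which holds Mei2 in a nuclear dot, had 19.7, 25.3 and 19.5 CPM at 8 h, against 5.77, 5.52 and 5.49 CPM at 4 h.

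The adducin mug14 had 174, 227 and 189 CPM at 8 h and 55.5, 63.0 and 46.2 CPM at 4 h, a rise of 1.84 on the log2 scale. The one member that fell, spo6, a subunit of a meiotic kinase, was near the floor in both groups, with 0.17 to 0.26 CPM at 8 h and 1.55 to 2.21 CPM at 4 h. The other members that rose, named after their values were seen, were hry1, cum1, meu15, pat1 and ste11. Pat1 is the kinase that blocks meiosis in growing cells, and its mRNA rose by 1.05. Ste11 is the transcription factor that starts mating, and its log2 change of 1.00 sat on the threshold. It missed the call with total counts as the scaling (0.98), with no filter (0.9996), in a fit of the deletion's 21 libraries alone (0.98), with a replicate block among the 6 libraries (0.998), and without replicate 2 at 8 h (0.91), replicate 1 at 4 h (0.99) or replicate 3 at 4 h (0.98).

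Among 11 mating-type-specific genes 2 rose (18.2% called, against 8.02% of all genes), with a median of 0.25. The P-factor gene map2, the pheromone of h+ cells, had 25.5, 32.6 and 27.0 CPM at 8 h, against 5.09, 5.37 and 6.26 CPM at 4 h, a rise of 2.35 ± 0.11. In the h- wild type map2 had 8.69, 9.92 and 9.92 CPM at 8 h and 7.58, 7.77 and 8.95 CPM at 4 h. At 0 h the wild type averaged 108 CPM and the deletion 5.88 CPM. So at 0 and 4 h map2 was higher in the h- strain, against the stated mating types. The M-factor gene mfm1, the pheromone of h- cells, had 20.7, 21.4 and 17.7 CPM at 8 h, against 4.90, 4.67 and 4.14 CPM at 4 h. In the h- wild type mfm1 had 432, 676 and 461 CPM at 8 h, against 12.1, 13.2 and 13.2 CPM at 4 h. The M-factor genes are near-identical copies, and their counts may be split between them. The P-factor receptor mam2 of h- cells had 4.37 to 4.54 CPM in the deletion at 8 h and 151 to 182 CPM in the wild type. For these genes strain and mating type cannot be told apart.

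Among the largest rises were 2 more noncoding RNAs. The lncRNA omt3, annotated as meiosis-specific, had 106, 119 and 98.8 CPM at 8 h, against 17.3, 16.2 and 14.8 CPM at 4 h, the largest rise that met the naming rule (2.75 ± 0.11 on the log2 scale). The noncoding RNA meu3 had 32.3, 23.3 and 26.8 CPM at 8 h and 5.63, 6.45 and 4.71 CPM at 4 h. A wider list of 126 genes named for being upregulated in meiosis (meu and mug names) had 4 members that rose and 3 that fell, with a median of 0.01. That is 5.56% called, beside 8.02% of all genes.

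Of 23 genes of glycolysis and fermentation 3 rose and none fell (13.0% called, against 8.02% of all genes), with a median of 0.14. The enolase eno102 had 1144, 963 and 934 CPM at 8 h, against 360, 225 and 191 CPM at 4 h, a rise of 1.97 ± 0.22. Replicate 1 was the highest of both groups. The pyruvate decarboxylase pdc201 had 311, 308 and 294 CPM at 8 h and 113, 98.0 and 94.1 CPM at 4 h. The glyceraldehyde 3-phosphate dehydrogenase gpd3 had 22091, 23303 and 15511 CPM at 8 h and 7932, 6731 and 6334 CPM at 4 h, and it shares sequence with its paralog.

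Of 23 genes of hexose transport and glucose repression 1 rose and 2 fell (13.0% called, against 8.02% of all genes). The gluconeogenic fructose-1,6-bisphosphatase fbp1 rose, with 411, 370 and 378 CPM at 8 h, against 225, 143 and 140 CPM at 4 h. The secreted invertase inv1, which splits sucrose, fell, with 50.3, 52.3 and 52.7 CPM at 8 h, against 354, 176 and 244 CPM at 4 h. Its 4 h libraries spread widely, and the log2 change was -2.32 ± 0.16 (edgeR adjusted p = 4.5e-15). Wild-type inv1 was low at both times, with 29.2, 39.8 and 35.1 CPM at 8 h and 37.7, 41.8 and 48.2 CPM at 4 h.

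Cytochrome b2, the lactate dehydrogenase SPAPB1A11.03, had 84.5, 67.3 and 72.5 CPM at 8 h in the deletion, against 281, 228 and 168 CPM at 4 h. It fell by 1.59 on the log2 scale, the change in the wild type was 0.02, and the difference of -1.62 was called (edgeR adjusted p = 1.4e-07). The glycerol-3-phosphate dehydrogenase gut2 averaged 201 CPM at 8 h and 405 CPM at 4 h. Its change of -1.01 sat on the threshold and missed it with a replicate block among the 6 libraries (-0.9998), and without replicate 1 at 8 h (-0.98), replicate 1 at 4 h (-0.93) or replicate 2 at 4 h (-0.99).

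Of 52 core stress genes 5 rose and 1 fell (11.5% called, against 8.02% of all genes), with a median of 0.08. Without replicate 1 at 8 h or replicate 2 at 4 h, 2 fell. The metallothionein zym1, a metal-binding protein, had 3429, 3008 and 3426 CPM at 8 h, against 1449, 1010 and 923 CPM at 4 h, a rise of 1.54 ± 0.14. The dihydroxyacetone kinase dak2 rose by 1.21, and isp3 and fbp1 by 1.12 and 1.19. The quinone reductase obr1 fell by 1.09, with a mean of 948 CPM at 8 h and 2014 CPM at 4 h. For zym1, dak2 and fbp1 replicate 1 at 4 h stood highest of the 4 h libraries, as for eno102. None of 32 heat shock and chaperone genes was called by edgeR or DESeq2, with 19 at an unadjusted p under 0.05. The small heat shock protein hsp16 had a log2 change of 0.91, which became a call of 1.07 without replicate 1 at 4 h.

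The urea transporter SPBC23G7.13c had 51.7, 77.1 and 52.6 CPM at 8 h, against 14.4, 9.48 and 10.6 CPM at 4 h, a rise of 2.39 ± 0.16. The guanine and adenine transporter SPBC887.17 had 496.6, 582 and 497 CPM at 8 h, against 107, 98.7 and 104 CPM at 4 h, a rise of 2.35 ± 0.09. The xanthine dioxygenase xan1, which opens the breakdown of xanthine, had 620, 823 and 663 CPM at 8 h and 264, 232 and 177 CPM at 4 h. The amino acid permease isp5 fell, with 38.2, 37.5 and 34.8 CPM at 8 h, against 98.4, 106 and 111 CPM at 4 h. Within the 26 genes of the nitrogen-starvation response 1 rose, the transcription factor fil1 (1.11), and 1 fell, isp5 (-1.51), with a median of 0.10. The 7.69% called there lie near the 8.02% of all genes, and 2 fell without replicate 1 or 2 at 8 h.

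The hydrolase hhy1, annotated to cellular detoxification, had 380.0, 395 and 387 CPM at 8 h, against 73.6, 74.1 and 44.5 CPM at 4 h, a rise of 2.59 ± 0.12 beside 3.08 in the wild type. The amino acid oxidase tda3 had 11.6, 11.9 and 11.3 CPM at 8 h and 3.08, 2.52 and 2.53 CPM at 4 h, and it rose too. Neither was called in the difference between strains.

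The largest fall that met the naming rule was that of the alanine racemase alr2, which had 6.10, 6.71 and 3.91 CPM at 8 h, against 58.8, 80.2 and 59.6 CPM at 4 h. That is -3.57 ± 0.19 on the log2 scale, beside -3.87 in the wild type. The biotin transporter vht1 had 129, 116 and 99.2 CPM at 8 h and 295, 300 and 354 CPM at 4 h. The S-adenosylmethionine synthetase sam1, which makes the methyl donor of the cell, had 508, 497 and 444 CPM at 8 h and 1306, 1335 and 1513 CPM at 4 h. The naming rule admitted these genes only because their groups did not overlap.

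Both enzymes that methylate phosphatidylethanolamine towards phosphatidylcholine, which use S-adenosylmethionine, fell, and they were the only called members among 27 phospholipid genes. That share, 7.41%, lies near the 8.02% of all genes called. The first methyltransferase, cho2, had 261, 245 and 241 CPM at 8 h and 569, 516 and 557 CPM at 4 h (-1.13 ± 0.05). The second, cho1, had 184, 185 and 191 CPM at 8 h and 386, 374 and 384 CPM at 4 h (-1.03 ± 0.05). Sterol synthesis had no call among 25 genes by edgeR or DESeq2. Its median was -0.28, with 23 members at an unadjusted p under 0.05.

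Among 24 iron genes 2 rose and 1 fell (12.5% called, against 8.02% of all genes), and 4 rose without replicate 2 at 4 h. The siderophore transporter str1 had 103, 119 and 98.8 CPM at 8 h and 46.0, 55.9 and 47.9 CPM at 4 h. The heme receptor shu1 rose by 2.05 at a low level, with 2.22, 3.14 and 2.63 CPM at 8 h and 0.68, 0.88 and 0.35 CPM at 4 h. The ferric reductase frp1 had a log2 change of -1.01, which missed the threshold without replicate 1 at 8 h (-0.94) or replicate 3 at 4 h (-0.93).

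Of 50 genes of mitosis and cell separation 5 fell and none rose in the deletion, beside 2.48% of all genes lower, with a median of -0.21. The wild type had 4 falls and no rise, with a median of -0.22, beside 3.28% of all genes lower there. The glucanase eng1, which digests the primary septum between daughter cells, had 268, 196 and 238 CPM at 8 h, against 764, 889 and 856 CPM at 4 h (-1.84 ± 0.09). The second septum glucanase, agn1, fell by 1.03, a call that was lost without replicate 2 at 8 h (-0.97). The gene adg1, known only in Schizosaccharomyces, had 171, 132 and 161 CPM at 8 h and 441, 516 and 497 CPM at 4 h. The cell surface protein adg2 had 451, 357 and 351 CPM at 8 h and 958, 1053 and 1010 CPM at 4 h. No library of these genes at 8 h reached one at 4 h, which the naming rule required of eng1, adg1 and adg2. The fifth was slp1, an activator of the anaphase-promoting complex, with 108, 95.3 and 102 CPM at 8 h, against 244, 260 and 254 CPM at 4 h (-1.31 ± 0.05). The chitinase cts2, outside that list, had 206, 165 and 187 CPM at 8 h and 527, 547 and 561 CPM at 4 h.

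In the list of 62 genes for G1 to S and DNA replication 3 fell and none rose, with a median of -0.32. These falls are 4.84% of the list, beside 2.48% of all genes lower. Without replicate 3 at 8 h or replicate 1 or 2 at 4 h, 1 rose. The 3 that fell were mik1, a kinase that restrains mitosis, tos4, a chromatin-binding protein, and cdt1, which licenses replication origins. The kinase mik1 had 10.8, 9.80 and 8.80 CPM at 8 h and 24.1, 25.6 and 27.0 CPM at 4 h. The call of cdt1 was lost without replicate 3 at 4 h (-0.99). The dUTPase dut1 fell too, with 45.5, 34.5 and 40.6 CPM at 8 h and 85.5, 92.8 and 105 CPM at 4 h.

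Histone genes had a median of -0.66 over 11 members, of which 2 fell and none rose (18.2%, against 2.48% of all genes lower). Histone H3 gene hht1 had 527, 488 and 530 CPM at 8 h, against 1298, 1296 and 1353 CPM at 4 h (-1.35 ± 0.04). Its neighbour for histone H4, hhf1, averaged 562 CPM at 8 h and 1133 CPM at 4 h, and its change of -1.01 was under the threshold without replicate 2 (-0.99) or 3 (-0.99) at 8 h. The number of histone genes that fell was 3 without replicate 1 at 8 h. Another pair, named after its values were seen, was higher at 8 h: hht2 averaged 1138 CPM at 8 h and 690 CPM at 4 h (0.72), and hhf2 averaged 587 CPM at 8 h and 478 CPM at 4 h (0.30). The copies are near-identical in sequence, so reads may have been split between them. No histone gene was called in the wild type, where the median was -0.16 and the log2 change of hht1 was -0.55. The difference between strains for hht1, -0.80 ± 0.06 (edgeR adjusted p = 8.8e-13), was under 2-fold.

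Genes for cytoplasmic ribosomal proteins had small changes in the deletion's step and fell in the wild type's. None of 137 was called in the deletion by edgeR or DESeq2, with 91 at an unadjusted p under 0.05. Their median log2 change was -0.19, with a range of -0.98 to 0.59, and 117 were negative. At the adjusted p alone 74 were negative and 10 positive, beside 2214 negative and 2291 positive among all genes. Of the same genes 76 fell in the wild type and none rose (55.5%, beside 3.28% of all genes lower there), with a median of -1.04. The difference between strains was called for 26, all positive, with a median of 0.84, beside 1.1% of all genes with a positive and 1.26% with a negative call. At the adjusted p alone 134 of the 137 differences were positive and none negative, beside 1011 positive and 1054 negative among all 6521 genes.

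Their summed levels lay close in both strains at 8 h and apart at 4 h. The deletion had 18122, 17870 and 18343 CPM at 8 h, against 18388, 20065 and 23614 CPM at 4 h. The wild type had 18756, 18726 and 21113 CPM at 8 h, against 40122, 37661 and 41711 CPM at 4 h. So at 4 h every deletion library lay below every wild-type library. The same held at 8 h, but by a small margin, with both groups within 17870 to 21113 CPM.

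Across time the deletion's mean was 192970, 20689, 18111 and 28905 CPM at 0, 4, 8 and 12 h. Wild-type libraries held 99400 to 105050 CPM at 0 h and 35116 to 38991 CPM at 12 h. The deletion's mean was therefore lowest at 8 h of these times. An exact two-sided permutation test on the summed levels of the deletion at 8 h and 4 h gave p = 0.1, the smallest that 3 against 3 libraries allow, and the groups were separated by less than the spread at 4 h.

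The counts turned on single libraries. Without replicate 3 of the deletion at 4 h, the highest in the sums, the median in the deletion was -0.07 and the difference was called for 61 genes. Without replicate 1 of the deletion at 4 h it was called for 13, without replicate 3 of the wild type at 4 h for 16, and without replicate 3 of the wild type at 8 h for 43. The median difference stayed between 0.76 and 0.97 with any 1 library left out.

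The genes rps902 and rpl31 were named for the size of their difference between strains. The 40S protein gene rps902 had 98.4, 94.6 and 100 CPM in the deletion at 8 h, against 103, 100 and 130 CPM at 4 h, groups that met at their edges. Wild-type libraries had 105, 99.0 and 114 CPM at 8 h, against 280, 274 and 291 CPM at 4 h. The difference between strains was 1.22 ± 0.10 (edgeR adjusted p = 4.0e-11). The 60S protein gene rpl31 overlapped between times in the deletion, at 177 to 180 CPM at 8 h and 170 to 222 CPM at 4 h, and its difference was 1.16 ± 0.11. The lowest log2 change in the deletion was that of rpl1002, -0.98, whose libraries had 17.7, 16.4 and 21.7 CPM at 8 h and 31.2, 34.1 and 44.8 CPM at 4 h. It passed the threshold without replicate 3 at 8 h (-1.11), replicate 1 at 4 h (-1.08) or replicate 2 at 4 h (-1.03). Most ribosomal proteins have paralogs, and counts of close copies are uncertain.

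**Figure D2:**
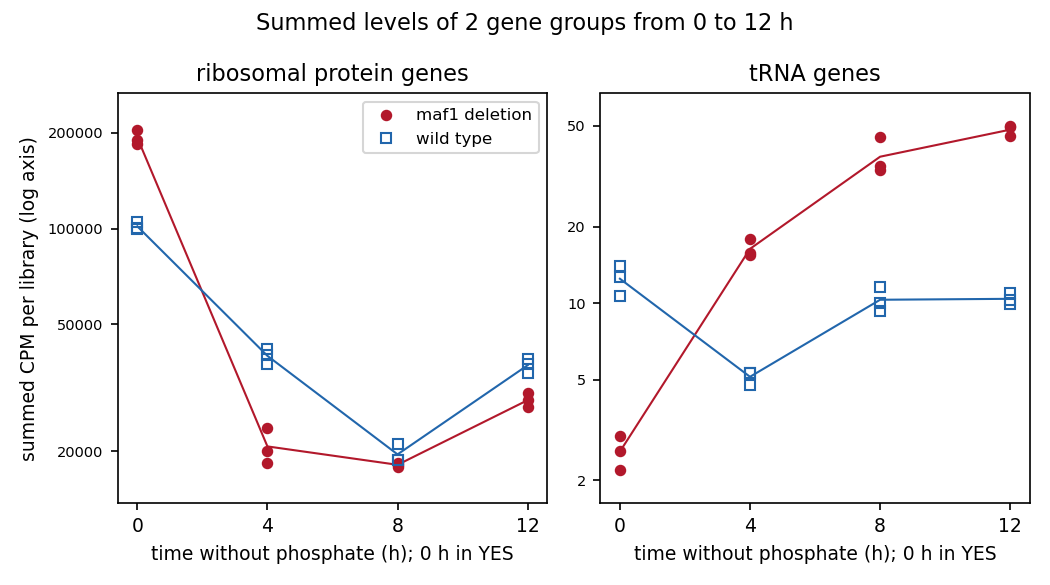
Summed level per library in CPM on a log axis, at 0, 4, 8 and 12 h, for 137 ribosomal protein genes and 94 tRNA genes. Filled red circles are the maf1 deletion, open blue squares the wild type, and lines join means of 3 libraries. At 4 h the deletion's ribosomal protein sums, 18388 to 23614 CPM, lie below the wild type's 37661 to 41711 CPM. At 8 h the deletion's 17870 to 18343 CPM lie just below the wild type's 18726 to 21113 CPM. The deletion's tRNA gene sums are 33.4 to 45.3 CPM at 8 h and 15.5 to 17.8 CPM at 4 h.

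Of 102 ribosome biogenesis genes 4 rose and none fell, with a median of 0.15. These are 3.92% of the list, beside 5.54% of all genes higher. They were bud20, a ribosome export factor, efg1 and gar2, which act in rRNA processing, and ltv1, which acts on the small subunit. The nucleolar protein gar2 had 1197, 1107 and 1020 CPM at 8 h and 564, 510 and 544 CPM at 4 h, a change of 1.04 ± 0.05. Its change in the wild type was 0.21. The count was 2 without replicate 1 at 8 h or replicate 2 at 4 h, when gar2 (0.98 and 0.9992) and ltv1 (0.98 and 0.9987) fell short. ltv1 fell short also with total counts as the scaling (0.98), with no filter (0.9988) and in a fit of the deletion's libraries alone (0.98). No gene was called by edgeR or DESeq2 among 7 RNA polymerase I subunits, 74 mitochondrial ribosomal proteins or 40 translation factors, with 3, 51 and 28 at an unadjusted p under 0.05.

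The targets of Maf1, RNA polymerase III and its products, were measured on the products only at trace level, since the libraries were poly(A)-selected. None of 20 genes for the polymerase III machinery was called by edgeR or DESeq2, with 12 at an unadjusted p under 0.05 and a median of 0.04. The largest log2 changes were those of the initiation factor subunits bdp1, with 59.9, 55.6 and 58.8 CPM at 8 h and 34.5, 34.3 and 33.6 CPM at 4 h (0.77), and brf1 (0.71). Their log2 changes in the wild type were 0.78 and 0.72. None of 54 tRNA processing genes was called, by either tool, with 37 at an unadjusted p under 0.05.

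Reads counted to tRNA genes were higher at 8 h in the deletion. Of 187 tRNA genes 94 passed the filter on low counts, and 31 of these rose and none fell. That is 33.0% called, beside 8.02% of all genes, with a median log2 change of 1.05. Summed over these 94 genes, the deletion's libraries held 1354, 1598 and 1319 counts at 8 h, against 579, 631 and 540 counts at 4 h. Scaled, this was 33.4, 45.3 and 34.7 CPM at 8 h, against 15.8, 17.8 and 15.5 CPM at 4 h, with no overlap. The sums differed by 1.20 on the log2 scale, and an exact two-sided permutation test gave p = 0.1, the smallest possible.

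The wild-type sums were 203, 168 and 198 counts at 8 h and 117, 101 and 97 counts at 4 h. Scaled, they were 10.03, 11.6 and 9.35 CPM at 8 h and 5.31, 5.30 and 4.77 CPM at 4 h, a log2 difference of 1.00. A single gene, SPBTRNAALA.07, gave 61, 53 and 58 of the wild-type counts at 8 h and 16, 13 and 15 at 4 h. The wild-type sums thus do not show a rise across the class. In the wild type 42 of the 94 log2 changes were positive, 29 negative and the rest 0, with a median of 0.00. Such values rest on few counts, 97 to 203 in a library over all 94 genes. By edgeR 9 tRNA genes rose there (9.57%, beside 6.21% of all genes). The count was 5 without replicate 2 at 8 h or replicate 1 at 4 h. At 8 h every deletion library thus held more scaled reads of the 94 genes than any wild-type library, and so it did at 4 h. At 0 h the deletion's libraries were lower, with 2.20 to 2.99 CPM against 10.7 to 14.04 CPM. The filter used all 14 groups, so a gene could pass it through libraries of another strain or time. Unfiltered, all 187 tRNA genes held 0.0034% to 0.004585% of the deletion's counts at 8 h and 0.001641% to 0.001882% at 4 h. In the wild type they held 0.001062% to 0.001295% at 8 h and 0.0005593% to 0.0006362% at 4 h. In the difference between strains 1 tRNA gene was called, a call that was lost without replicate 1 at 8 h or replicate 1 or 2 at 4 h of the deletion, or without replicate 3 at 8 h or replicate 1 or 2 at 4 h of the wild type.

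Single tRNA genes rest on few reads. The gene SPCTRNAASP.08 had 10, 17 and 10 counts at 8 h and 3, 0 and 0 counts at 4 h. The gene SPBTRNAALA.07 had 13, 0 and 8 counts at 8 h and 1, 0 and 1 counts at 4 h, so its groups overlapped although it was called. Calls of SPATRNACYS.02 and SPATRNACYS.03, with at most 9 counts in a library, were lost when 1 of several libraries was left out. tRNA genes occur in near-identical copies, and how reads that map to several were counted is not given in the sources used here. Whether the reads are mature tRNA, precursors or neighbouring transcripts was not tested.

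Of 43 snoRNA genes 14 rose and 1 fell (34.9% called, against 8.02% of all genes), with a median of 0.89. In the wild type 8 rose and 1 fell (20.9% called), with a median of 0.49. Without replicate 1 of the wild type at 8 h those were 4 and 2. The fall in the deletion lost its call when any 1 of the 8 h libraries, or replicate 3 at 4 h, was left out. The U3 snoRNA gene snu3, which guides rRNA cleavage, had 228, 266 and 196 counts at 8 h and 44, 67 and 56 counts at 4 h, and its copy snu32 had 242, 261 and 190 counts at 8 h and 36, 49 and 49 counts at 4 h. Summed over the 43 snoRNA genes tested, the deletion had 382, 393 and 355 CPM at 8 h, against 200, 215 and 205 CPM at 4 h. For rRNA genes, mostly 5S copies, 14 of 36 rose and 1 fell in the deletion (41.7% called, against 8.02% of all genes). Their median was 0.87. The fall lost its call when any 1 of the 6 libraries was left out. In the wild type 16 rRNA genes rose and none fell (44.4%, beside 6.21% of all genes higher there), with a median of 1.14. The summed level of the rRNA genes in the deletion averaged 97.5 ± 8.22 CPM at 8 h and 127 ± 23.4 CPM at 4 h (SD, n = 3 each). An exact two-sided permutation test on these sums gave p = 0.2. The single calls SPRRNA.18 and SPRRNA.44 rest on a few reads and were lost without 1 library. Poly(A) selection and cleavage of these RNAs were not measured apart, and their part in these values was not tested.

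Noncoding RNA genes gave most of the calls, with 173 of 1263 higher and 94 lower (21.1% called, against 8.02% of all genes). Their median was 0.26, beside -0.03 for protein-coding genes. Of the same genes 207 rose and 84 fell in the wild type, with a median of 0.30. Among those with at least 10 CPM in a group and no overlap, the largest rise after omt3 was that of ubp16-antisense-1, with 89.2, 91.2 and 90.0 CPM at 8 h, against 18.1, 14.3 and 11.9 CPM at 4 h. On the same terms the largest fall was that of cao2-antisense-1, with 1.78, 1.27 and 2.68 CPM at 8 h and 8.44, 10.6 and 13.6 CPM at 4 h, followed by SPAC23C11.06c-antisense-1. The kit marks strand, but the strand setting of the counting is not given in the sources used here, so reads of such genes and of their sense partners may not be told apart.

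A pair of protein-coding genes without a symbol stood at the ends of their range. SPBPB21E7.10, a protein known only in Schizosaccharomyces, had 30.6, 31.6 and 28.6 CPM at 8 h, against 4.19, 1.98 and 1.64 CPM at 4 h (3.53 ± 0.24). The adducin SPBC1289.14 had 25.8, 15.9 and 17.4 CPM at 8 h and 103, 86.7 and 60.8 CPM at 4 h (-2.08 ± 0.20). The beta-glucosidase psu2 had the highest log2 change of a listed gene, 4.33, from 106, 139 and 107 counts at 8 h and 5, 8 and 3 counts at 4 h. In the next step, to 12 h, it rose again, by 4.07.

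Of 37 gene lists, 18 had a called member in the deletion and 19 had none, by edgeR and by DESeq2. In the lists with none, 33.3% to 92.0% of the members had an unadjusted p under 0.05, beside 71.4% of all genes, so many small changes lay under the fold threshold. At the adjusted p alone, 2291 of all 6521 genes were positive and 2214 negative. The respiratory chain and ATP synthase had 27 of 32 members positive at the adjusted p and none negative, with a median of 0.25. Autophagy genes had 22 of 33 positive and 4 negative, with a median of 0.21, and the mitophagy receptor atg43 averaged 596 CPM at 8 h and 337 CPM at 4 h. The proteasome had 30 of 34 negative and none positive, with a median of -0.27. The wild-type medians of these 3 lists were 0.35, 0.34 and -0.25. Amino acid biosynthesis had no call among 63 genes in the deletion by edgeR or DESeq2, with 45 at an unadjusted p under 0.05 and a median of -0.06, beside 3 falls and a median of -0.33 in the wild type. The serine hydroxymethyltransferase shm1, which moves a carbon unit from serine to folate, had 467, 459 and 424 CPM in the deletion at 8 h, against 830, 816 and 931 CPM at 4 h, a log2 change of -0.93. In the wild type shm1 fell by 1.93, and the difference of 1.00 ± 0.08 (edgeR adjusted p = 7.3e-12) sat on the 2-fold threshold.

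**Figure D3:**
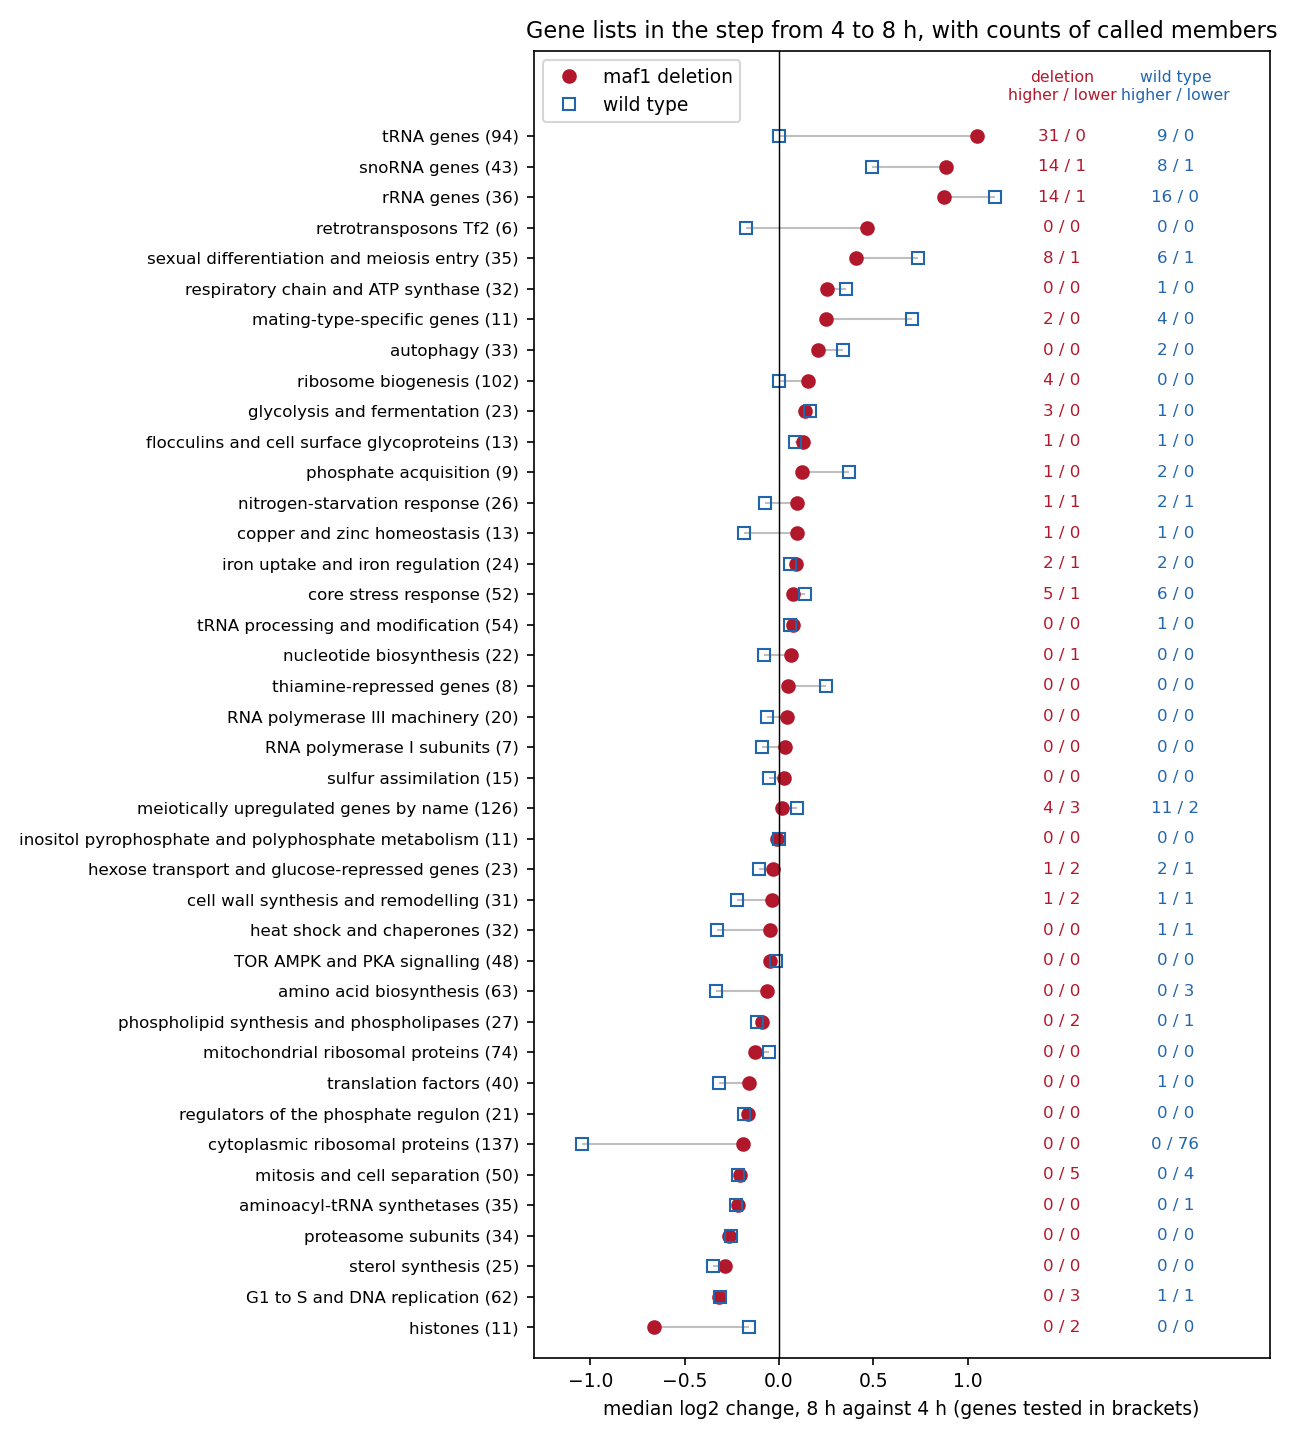
Median log2 change from 4 to 8 h for 37 gene lists and 3 classes of RNA gene, with the number of genes tested in brackets. Red circles are the maf1 deletion and blue squares the wild type, and the columns at the right give members called higher and lower in each strain. Ribosomal proteins lie at -0.19 in the deletion and -1.04 in the wild type.

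Many calls were shared with the wild type, whose step uses none of the same libraries. There 405 genes rose and 214 fell. The 201 genes that rose in both strains were 55.7% of the deletion's rises and 49.6% of the wild type's. The 72 that fell in both were 44.4% and 33.6%. A single gene rose in the deletion and fell in the wild type, ftm2, at 4.39 CPM at 8 h and 2.16 CPM at 4 h in the deletion, and at 1.07 CPM at 8 h and 3.38 CPM at 4 h in the wild type, and none did the opposite. A call in 1 strain alone does not show that the strains differ, so the difference was tested itself.

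The step differed between strains by at least 2-fold for 154 genes, 72 with a more positive change in the deletion and 82 with a more negative one. Of the 72, 32 had fallen in the wild type without a call in the deletion, and 14 had risen in the deletion alone. Of the 82, 27 had risen in the wild type alone and 21 had fallen in the deletion alone. At the adjusted p alone 2065 genes differed.

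Differences at the positive end, beside map2 (2.12), omt3 (1.32), rps902 and rpl31, were those of fub2 and cmt2. The proteasome regulator fub2 had 35.3, 28.0 and 37.0 CPM in the deletion at 8 h, against 10.7, 6.96 and 6.98 CPM at 4 h, and 11.1 to 15.3 CPM in the wild type at 8 h, against 9.40 to 10.6 CPM at 4 h. The O-methyltransferase cmt2 rose by 1.36 in the deletion, with a change of -0.11 in the wild type. At the negative end, beside mfm1 (-3.22) and inv1 (-2.01), mfm3 (-4.32) had 1.93, 2.01 and 1.52 CPM in the deletion at 8 h, against 1.39, 1.58 and 0.86 CPM at 4 h. Its wild-type libraries had 71.8, 122 and 76.4 CPM at 8 h, against 2.45, 3.31 and 3.79 CPM at 4 h. The lncRNA fbp1-ot3, from the upstream region of fbp1, had 0.59, 0.85 and 0.58 CPM in the deletion at 8 h, against 8.16, 10.8 and 9.63 CPM at 4 h.

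The dehydrogenase ssd2, which oxidises succinate semialdehyde, had 120, 148 and 112 CPM in the deletion at 8 h, against 213, 166 and 141 CPM at 4 h, groups that overlapped. In the wild type it had 133, 132 and 109 CPM at 8 h, against 48.0, 46.8 and 35.3 CPM at 4 h. The difference was -1.97 ± 0.23 (edgeR adjusted p = 2.8e-08). For xan1 the wild type had 1272, 1643 and 1317 CPM at 8 h, against 101, 101 and 99.6 CPM at 4 h, so it rose in both strains and by more in the wild type (difference -2.17 ± 0.16). Both genes had higher levels in the deletion than in the wild type at 4 h, as inv1 did.

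**Figure D4:**
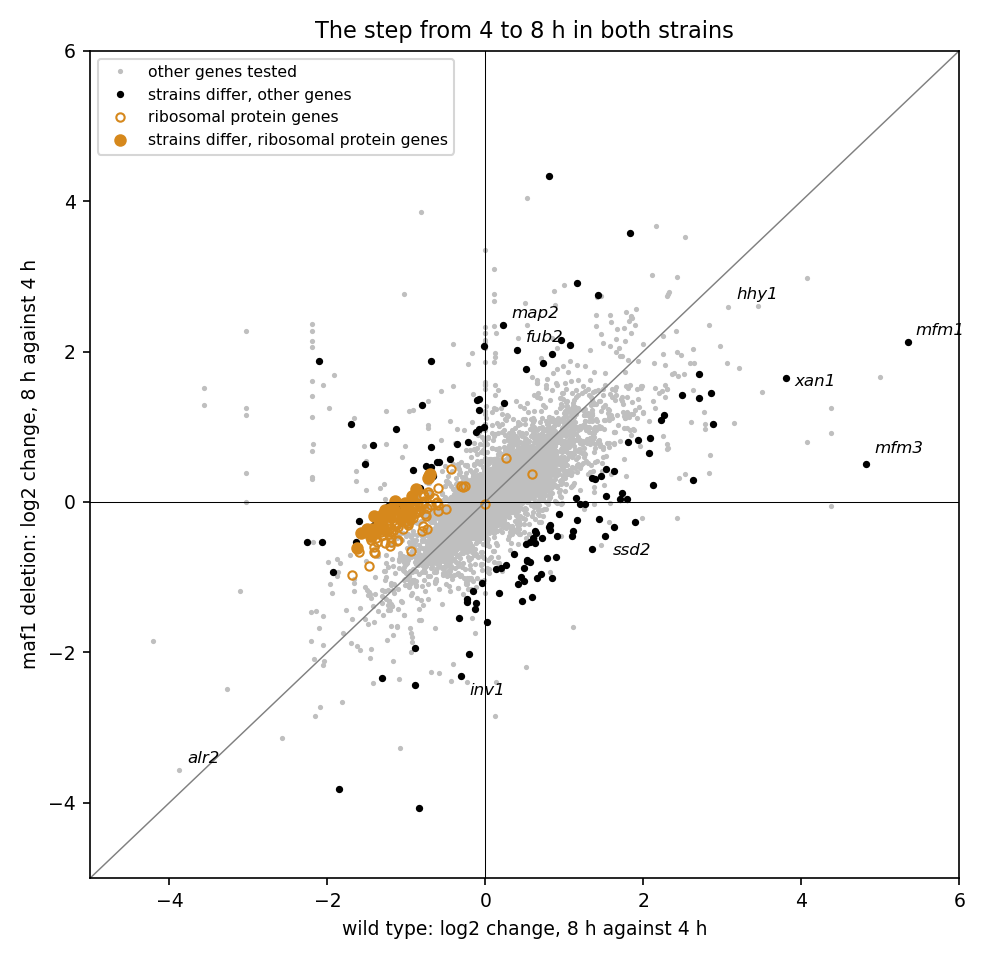
Log2 change from 4 to 8 h of each of 6521 genes in the maf1 deletion (vertical) and the wild type (horizontal), with the diagonal of equal change. Black and filled orange points are the 154 genes whose change differed between strains, grey points are other genes, and orange marks the ribosomal protein genes. The filled orange points, 26 genes, all lie above the diagonal, and the medians of all 137 are -0.19 in the deletion and -1.04 in the wild type, while mfm1 and mfm3 lie far to the right.

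The following step of the deletion, from 8 to 12 h, shares its 8 h libraries, so its values are only set beside those above. In it 86 genes rose and 36 fell, which is 1.32% and 0.552% of the genes. Ribosomal protein genes had 33 rises and no fall there, with a median log2 change of 0.76. The gene mei2 averaged 693 CPM at 12 h and 663 CPM at 8 h, with no call. The acid phosphatase pho1 averaged 31064 CPM at 12 h and 27184 CPM at 8 h, and eno102, which rose again, 2497 CPM at 12 h and 1014 CPM at 8 h. tRNA gene reads were at 45.6, 49.4 and 49.9 CPM at 12 h.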

How the data were processed

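Poly(A)+ RNA was counted per gene in 42 libraries, 3 for each of 14 samples, and groups were taken from the labels. The submitters' processing notes name the build ASM294v2 and, with no role, the tools HTSeq 0.10.0, HISAT2 2.1.0, DESeq2 and SAMtools. The strand setting, the annotation and the handling of reads that map to several places are not given in the sources used here. The deposited estimated counts are whole numbers except that 0.5 stands in place of 0 (6.51% of values), and they were rounded, 0.5 to 0. The mean normalised signal that the authors deposited for each group was used as an alternative only. Symbols came from the deposited tables, and where those lacked one from a reference table of assembly ASM294v3, used for names alone.

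With R 4.3.3 and edgeR 4.0.16, genes were kept by filterByExpr (6521), TMM factors were computed, and a quasi-likelihood model of 1 mean per sample was fitted to all 42 libraries (28 residual degrees of freedom), so that the spread is estimated over all groups. A call needs a Benjamini-Hochberg adjusted p under 0.05 over all genes and at least 2-fold change. Standard errors come from the F statistics. CPM are counts scaled to 1 common library size after TMM. The code was tested on simulated data. Alternatives were DESeq2 1.42.0, other scalings, no filter, fewer libraries in the fit, a replicate block and each library left out. TMM from protein-coding genes and the deposited means were added after seeing the data.

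Named genes are maf1 and the phosphate acquisition genes. To these come the 12 largest called rises and falls with a symbol, at least 10 CPM in a group and no overlap. Up to 4 called members of each list were added, or 2 where none was called, and the 6 largest strain differences each way. The largest changes each way among noncoding and coding identifiers were added too, and some of these are printed. Also outside this rule are obr1, isp3 and ftm2, named after their values were seen. Symbols of the form X-antisense-n count as identifiers. The comparison, the lists and the rule were chosen with earlier results of these data known. Libraries with the same replicate number deviated together (correlations of 0.22, 0.14 and 0.13 between 8 h and 4 h in the deletion, 0.16, 0.27 and 0.27 in the wild type), so the numbers were taken to pair the libraries by this check, not by the labels. The main fit and the permutation tests leave this pairing out, and only the replicate block takes it in. A planned count of promoter motifs was not run, because the reference holds no promoter table and its assembly is not that of the counts. A planned gene list is not reported here.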

Additional observations from a re-analysis of the deposited data

Results flagged for a closer look

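The change from 4 to 8 h differed between the maf1 deletion and the wild type for 154 genes by a test of the difference itself, edgeR's quasi-likelihood test of the interaction with at least 2-fold difference. The named differences in log2 change, deletion minus wild type, were 2.12 for map2, 1.62 for fub2, 1.47 for cmt2, 1.32 for omt3, 1.22 for rps902 and 1.16 for rpl31. On the other side they were -4.32 for mfm3, -3.22 for mfm1, -2.17 for xan1, -2.01 for inv1 and -1.97 each for ssd2 and fbp1-ot3. The strains also differ in mating type and depth, and for the pheromone genes map2, mfm1 and mfm3 genotype and mating type cannot be told apart.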

How the results depend on the processing

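The number of called genes in the deletion's step was 523 and ran from 465, with only its 6 libraries in the fit, to 538, with TMM from protein-coding genes. The strain difference (154) ran from 152 to 170, and its share of positive calls was 46.8% as reported and at most 55.6% under other scalings and 55.9% with DESeq2. With each library left out in turn the counts were 483 to 549 in the deletion, 588 to 666 in the wild type, 132 to 197 for the difference and 107 to 142 for the deletion's following step. With no minimum fold they were 4505, 4562, 2065 and 2540. The replicate block over all 42 libraries gave 527 in the deletion's step and 159 for the difference. Among the compared libraries alone it gave 465 and 164, and gut2 and ste11 missed their calls. Of 2017 values of 136 named genes 1976 kept direction and call. Changes of sign came in 2, when a library was left out, with ranges of -0.0164 to 0.31 for maf1 and -0.19 to 0.0124 for rpl31. The value of SPRRNA.18 was 0.0 without replicate 1 at 8 h, the library that holds its reads there. Calls of low tRNA, snoRNA and rRNA genes are limited by counts. The ratio of the authors' deposited means differed from the fitted change by a median of -0.0002.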
